A study of Saccharomyces cerevisiae with 6 samples.

Results

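The 7 genes PHO2, PHO80, PHO85, PHO81, SPL2, KCS1 and VIP1 belong to the phosphate (PHO) signalling pathway of budding yeast, at whose centre stands the transcription factor Pho4. They were chosen by gene symbol for their place in the pathway, with earlier results of these data known. Each had 1 probe set among the 5449 tested genes. Transcript levels were measured on 6 Affymetrix Yeast Genome 2.0 arrays, on which each probe set gives a brightness that stands for the level of a transcript. On 3 arrays strain 26972c held the vector pYES3 carrying GmbHLHm1 (SAT1), which encodes a soybean transcription factor of the basic helix-loop-helix (bHLH) class, and on 3 it held the empty vector pYES3. All 6 cultures shared the alleles of 26972c, which are a mutated MEP1 (mep1-1), a deleted MEP2, an intact MEP3 and a ura- mark, and all were harvested after 12 h at 28 °C in minimal medium with 2% galactose, which switches on the vector's promoter, and 1 mM ammonium. Before that they had grown on glucose and L-proline. The cultures were seeded from starter cultures, and the labels do not make clear whether each construct had more than 1. If it had only 1, the effect of GmbHLHm1 and a difference between starters cannot be told apart. The spread behind each p-value is that between these cultures and arrays alone.

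When phosphate is plentiful, the cyclin Pho80 and the cyclin-dependent kinase Pho85 phosphorylate Pho4, which then leaves the nucleus. When phosphate is scarce, the inhibitor Pho81 holds the kinase in check, and Pho4, together with the homeodomain protein Pho2, switches on genes for phosphate uptake, phosphatases and polyphosphate. The inositol pyrophosphates that Kcs1 and Vip1 make report the phosphate status to proteins with an SPX domain, of which Pho81 is one. Spl2 is a small protein related to Pho81 that lowers the activity of the low-affinity phosphate transporter Pho87, and the genes for Pho81 and Spl2 are themselves targets of Pho4. The comparison asks whether the transcripts of this machinery differed between cells with GmbHLHm1 and cells with the empty vector.

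Values are log2 of the deposited intensities, and changes are GmbHLHm1 minus empty vector on that scale. All 7 genes lay above the background level of every array, SPL2 by the smallest margin, at least 4.71 log2 units. Arrays within the GmbHLHm1 group correlated across genes at r = 0.9938 to 0.9963, and within the empty vector group at 0.9986 to 0.9987, with genes as points, which are not independent. For the median gene the SD was 0.0875 log2 units over the GmbHLHm1 arrays and 0.0502 over the empty vector arrays. The deleted MEP2 lay below background on all 6 arrays. The test still called it lower, by 0.40 on the log2 scale (limma, adjusted p = 0.0433). That call was lost, at up to 0.159, without empty vector replicate 1, 2 or 3. No probe set is named for the soybean gene, so the transcript from the construct was not measured. MEP1 fell by 0.46 on the log2 scale (limma, adjusted p = 0.0109), a call that was lost when empty vector replicate 3 was left out (0.0520). MEP3 rose by 0.91 (limma, adjusted p = 0.0138; lost, at up to 0.0677, without empty vector replicate 1 or 2), and URA3 by 1.35 (limma, adjusted p = 0.0105; lost, at 0.0533, without empty vector replicate 1). On the GmbHLHm1 arrays all 16 ribosomal RNA controls (18S and 25S) had lower group means, with a median log2 change of -1.01, whereas the log2 difference between the 3' and 5' control probe sets of 5 yeast genes moved by between -0.14 and 0.04. Whether these features of the RNA have a part in the changes below was not tested.

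Of the 7 genes, 2 rose in GmbHLHm1 cells, SPL2 and PHO81, and none fell. At an unadjusted p under 0.05 limma gave the same 2, and 1468 of all 5449 tested genes. The other 5, which encode the cyclin, the kinase, the Pho4 partner and both inositol polyphosphate kinases, did not pass the test. Tests were two-sided moderated tests of limma, adjusted over all 5449 genes by Benjamini-Hochberg, with a threshold of 0.05. By the same test 7.45% of all tested genes rose and 4.64% fell, 12.1% in either direction. Values of the groups did not overlap for 3 of the 7 genes, SPL2 and PHO81 on the higher side and PHO2 on the lower side, where 19.3% of all tested genes lay apart on the higher side and 13.9% on the lower side, 33.2% in all. The median log2 change over the 7 genes was 0.06, against 0.02 over all tested genes. Counts this small show nothing particular to the set.

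**Figure D1:**
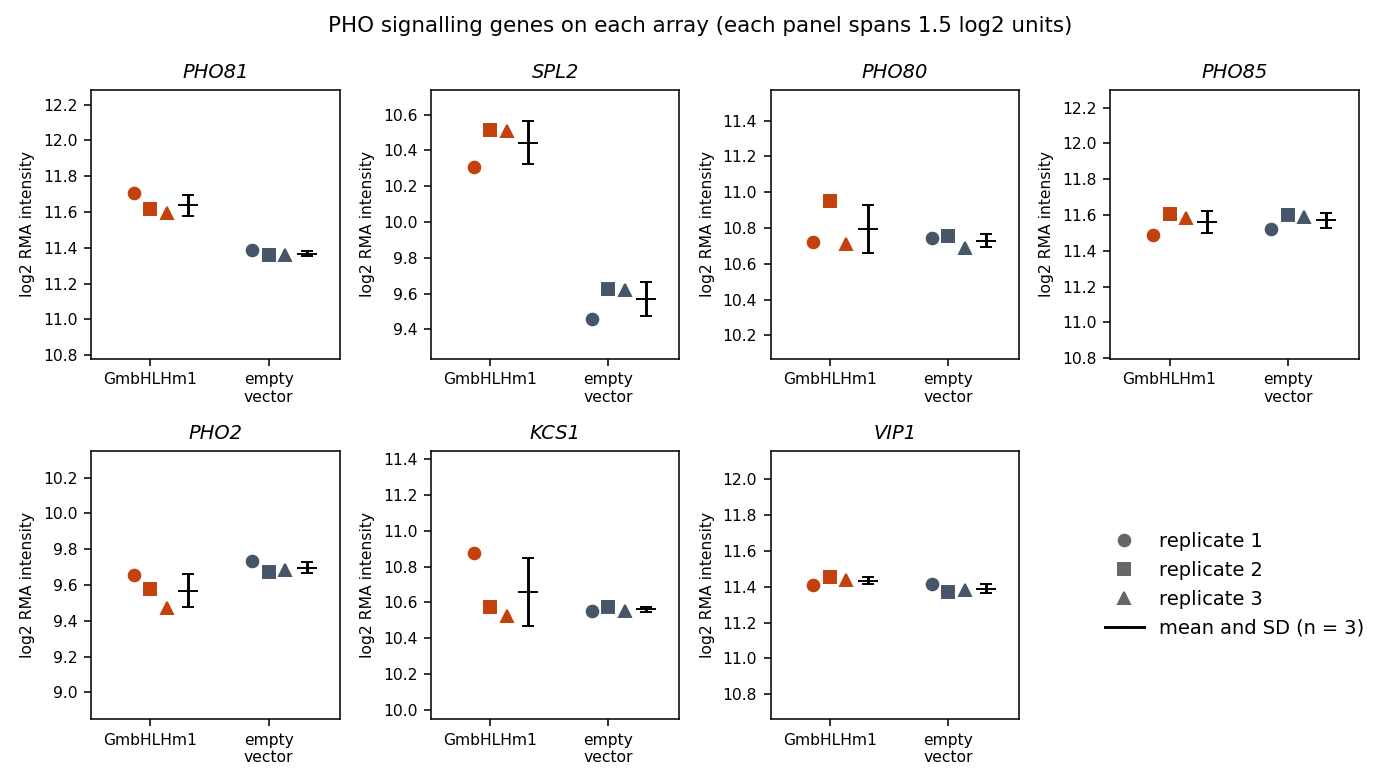
Log2 RMA intensity of the 7 PHO signalling genes on each of the 6 arrays, with GmbHLHm1 left of the empty vector in each panel, symbols for replicates 1 to 3, and bars for the mean and SD (n = 3). The groups are well apart for SPL2 and, by a smaller step, for PHO81; replicate 1 of GmbHLHm1 stands high for KCS1 and replicate 2 for PHO80.

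SPL2 (YHR136C), the gene for the small Pho81-related protein, moved most. Its log2 intensity was 10.30, 10.52 and 10.51 in GmbHLHm1 replicates 1, 2 and 3, against 9.46, 9.63 and 9.62 with the empty vector. Every GmbHLHm1 array lay above every empty vector array, and the gap between the groups was wider than the spread within either. SPL2 rose by 0.87 ± 0.08 (SE) on the log2 scale, a fold of 1.83 with a 95% interval of 1.62 to 2.08 (limma, adjusted p = 0.000706). It was the gene with the 62nd highest log2 change of the 5449. Leaving out each array in turn kept the call every time, with adjusted p between 0.000513 and 0.00530.

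PHO81 (YGR233C), the gene for the inhibitor of Pho80 and Pho85, rose by a smaller amount. It measured 11.70, 11.61 and 11.60 in GmbHLHm1 replicates 1, 2 and 3, against 11.39, 11.36 and 11.36 in the empty vector group. The groups did not overlap, and the 3 empty vector values were closer together, at an SD of 0.0146 log2 units, than those of GmbHLHm1, at 0.0576. The change was 0.27 ± 0.05 (SE) on the log2 scale, a fold of 1.21 with a 95% interval of 1.12 to 1.30 (limma, adjusted p = 0.0133). The size hardly moved when an array was left out, from 0.24 to 0.29, but the call was lost without empty vector replicate 1, 2 or 3, with adjusted p of 0.0599, 0.0608 and 0.0654.

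Since SPL2 and PHO81 are related inhibitors, their changes were set against each other within each array. The log2 intensity of SPL2 minus that of PHO81, from different probe sets and so only to be compared between arrays, was -1.40, -1.10 and -1.09 in GmbHLHm1 cells, against -1.93, -1.73 and -1.74 in empty vector cells. SPL2 thus rose by 0.60 log2 units more than PHO81 (two-sided exact permutation p = 0.1, the lowest possible with 3 arrays against 3; adjusted over 3 such pairs, p = 0.3). For PHO81 minus PHO80, the inhibitor against the cyclin it acts on, the difference between the groups was 0.21 log2 units (exact permutation p = 0.2, adjusted p = 0.3). For the kinase PHO85 minus PHO80 it was -0.07 (exact permutation p = 0.4, adjusted p = 0.4). These 3 pairs were chosen after the values were seen, and none of the 3 could pass the threshold at this number of arrays.

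The transcripts of the kinase complex that Pho81 and Pho4 meet showed no change past the test. PHO80 (YOL001W), the cyclin gene, measured 10.72, 10.95 and 10.71 in GmbHLHm1 replicates 1, 2 and 3, against 10.74, 10.76 and 10.69 with the empty vector. The groups overlapped, and GmbHLHm1 replicate 2 alone stood above the rest. Its log2 change was 0.06, with a 95% interval of -0.11 to 0.24, or a fold of 0.928 to 1.18 (limma, adjusted p = 0.632). PHO85 (YPL031C), the kinase gene, measured 11.49, 11.60 and 11.58 in the GmbHLHm1 group, against 11.52, 11.60 and 11.59 in the empty vector group. Replicate 1 was the lowest array of both groups, and the group means differed by a log2 change of -0.01, with a 95% interval of -0.13 to 0.11, or a fold of 0.914 to 1.08 (limma, adjusted p = 0.926). Of the 5449 genes, 7.14% had a smaller change in either direction than PHO85.

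PHO2 (YDL106C), the homeodomain gene whose protein binds promoters together with Pho4, was the only gene of the set with a group difference on the lower side and no overlap. It measured 9.66, 9.58 and 9.47 in GmbHLHm1 cells, against 9.73, 9.67 and 9.68 in empty vector cells. The gap between the nearest arrays of the groups was small beside the spread within the GmbHLHm1 group. Its log2 change of -0.13 had a 95% interval of -0.27 to 0.01, or a fold of 0.832 to 1.01, and did not pass the test (limma, adjusted p = 0.215).

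KCS1 (YDR017C) and VIP1 (YLR410W) encode the kinases that add the pyrophosphate groups to inositol polyphosphates, each at a different place on the ring. KCS1 measured 10.87, 10.57 and 10.52 in GmbHLHm1 replicates 1, 2 and 3, against 10.55, 10.58 and 10.55 with the empty vector. Replicate 1 of GmbHLHm1 was high, and the other two lay on either side of the empty vector mean. The SD of KCS1 was 0.190 log2 units in the GmbHLHm1 group, above that of 87.3% of tested genes, and 0.0129 in the empty vector group, above that of 5.89%. Its log2 change was 0.10, with a 95% interval of -0.12 to 0.31 (limma, adjusted p = 0.559), and -0.013 without GmbHLHm1 replicate 1. Shorter transcripts that start within KCS1 are known in yeast, and the single probe set gives no separate value for them. VIP1 measured 11.41, 11.45 and 11.44 in GmbHLHm1 cells, against 11.42, 11.37 and 11.38 in empty vector cells. Its arrays were close together in both groups, and its interval was the narrowest of the 7, from -0.05 to 0.14 around a log2 change of 0.04 (limma, adjusted p = 0.554).

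**Figure D2:**
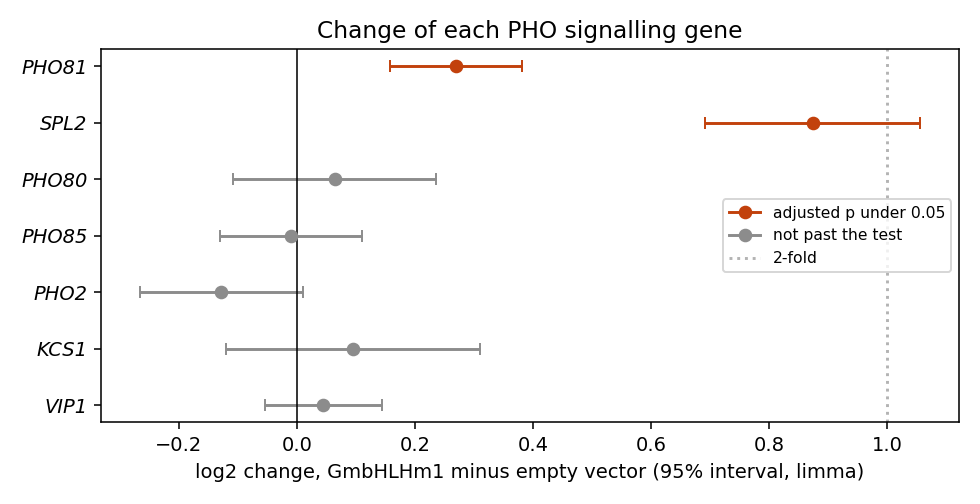
Log2 change of each PHO signalling gene, GmbHLHm1 minus empty vector, with limma's 95% interval; filled colour marks an adjusted p under 0.05 and the dotted line a 2-fold rise. The intervals of SPL2 and PHO81 lie above 0, and those of the other 5 genes include 0.

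For the 5 genes that did not pass, the 95% intervals give the range of changes that the data allow. The widest of them, that of KCS1, reached a fold of 1.24 on the higher side, and the lowest bound, that of PHO2, a fold of 0.832. The missed threshold does not show that the levels were equal. Of the 7 intervals, that of SPL2 was the only one to include a 2-fold change.

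The genes around the set were then counted by role, from lists written for this pathway. Among 8 regulators that work with the set none passed the test in either direction, where 12.1% of all tested genes did. At an unadjusted p under 0.05 limma gave 1 of the 8, SWI5, and 1468 of all 5449 tested genes. Counts this small show nothing particular to the regulators. PHO4, the bHLH activator that the pathway controls, had a log2 change of 0.11 ± 0.06 (SE; limma, adjusted p = 0.268). PSE1, the importer that brings Pho4 into the nucleus, had a log2 change of 0.0022, and MSN5, the exporter that takes phosphorylated Pho4 out, one of -0.04. SWI5, a cell cycle factor that also works with Pho2, had a log2 change of 0.37 with groups that did not overlap (limma, adjusted p = 0.0973). Groups lay apart on the higher side for 19.3% of all tested genes. The log2 changes of BAS1, the Pho2 partner at purine genes, CBF1, a bHLH factor that binds the same core motif as Pho4, GCR1, an activator of glycolytic genes, and PHO23, a subunit of a histone deacetylase complex, lay between -0.07 and 0.06.

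Downstream of the set, 11 of 19 tested Pho4 target genes rose and none fell, where 7.45% of all tested genes rose and 4.64% fell. The median log2 change of the 19 was 0.94. PHO12 and VTC5 were not among the tested genes. The list was written with earlier results of these arrays known, so its direction is no independent evidence. The highest were PHO84, the high-affinity phosphate transporter, at 5.27, PHM6 at 3.75 and GIT1, a glycerophosphoinositol transporter, at 2.37. The lowest past the test were CTF19, a kinetochore gene, at 0.97, GDE1, a glycerophosphodiesterase, at 0.94, and VTC4, the polyphosphate polymerase, at 0.62. Each of these 6 passed in all 6 fits that left out 1 array. The change of SPL2 lay between those of VTC4 and GDE1, and that of PHO81 lay below every Pho4 target that passed. On these arrays the summed intensity of 4 genes of the a mating type was 9416 to 10203 with GmbHLHm1, against 6068 to 6305 with the empty vector, and all 4 rose. The 3 genes of the alpha mating type summed to 863 to 1050 with GmbHLHm1, against 909 to 930 with the empty vector, and 1 of the 3, MF(ALPHA)1, rose (limma, adjusted p = 0.0203, and up to 0.0930 without empty vector replicate 1 or 2). None of 4 sporulation genes passed limma's test. At an unadjusted p under 0.05 limma gave 3 of the 4, and 1468 of all 5449 tested genes. The 4 sporulation genes summed to 320 to 401 with GmbHLHm1, against 261 to 281 with the empty vector. The part of mating or sporulation state in the phosphate genes was not tested.

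**Figure D3:**
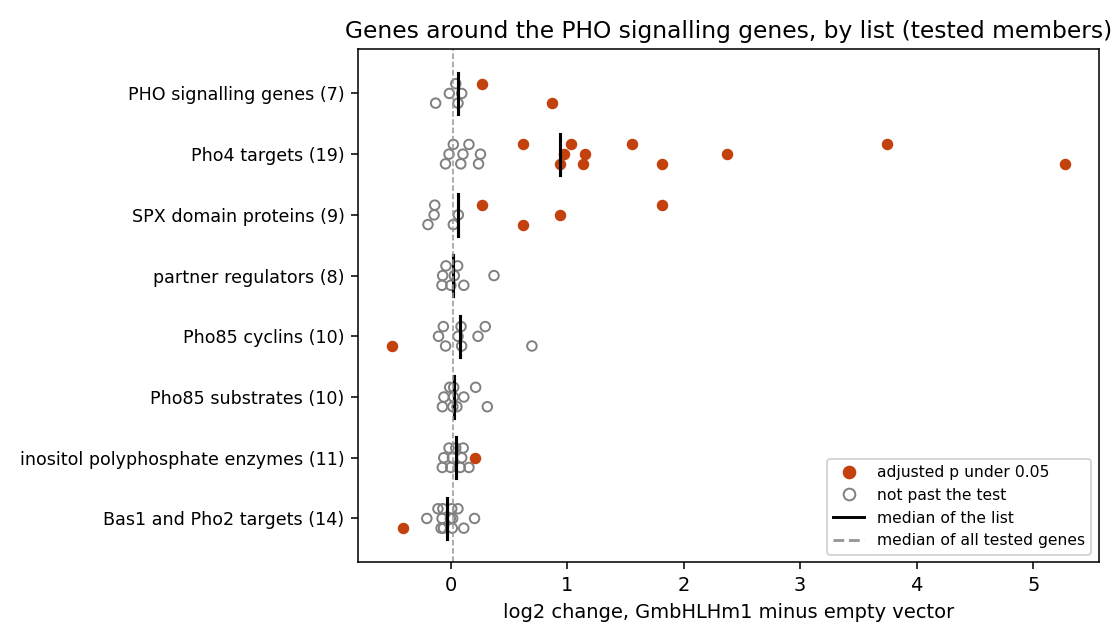
Log2 change, GmbHLHm1 minus empty vector, of the PHO signalling genes and of 7 lists of genes around them, each point a tested gene (their number in brackets), filled where the adjusted p was under 0.05; black bars are list medians and the dashed line the median of all tested genes. The Pho4 targets spread up to 5.27, while the medians of the regulators, cyclins, substrates, inositol enzymes and Bas1 and Pho2 targets lie between -0.03 and 0.08, with single genes from -0.50 (PCL5) to 0.70 (PCL1).

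Proteins with an SPX domain, which binds inositol pyrophosphates, moved unevenly. Of 9 tested genes 4 rose and none fell by limma, where 7.45% of all tested genes rose and 4.64% fell. At an unadjusted p under 0.05 limma gave 5 of the 9, and 1468 of all 5449 tested genes. The further gene of the 5 was PHO87, on the lower side. The median log2 change of the 9 was 0.07. Besides PHO81, the genes that rose were VTC3 at 1.81, VTC4 at 0.62 and GDE1 at 0.94. VTC3, VTC4 and GDE1 are also in the list of Pho4 targets, so the count is not independent of that list. VTC3 and VTC4 encode subunits of the vacuolar polyphosphate polymerase. VTC2, a further subunit, had a log2 change of 0.02 and SYG1, a plasma membrane protein, one of 0.07. The low-affinity phosphate transporter genes PHO87, PHO90 and PHO91 had log2 changes of -0.19, -0.14 and -0.14, with adjusted p of 0.122, 0.353 and 0.212 by limma. PHO87, whose protein Spl2 acts on, measured below every empty vector array on each GmbHLHm1 array, but its change did not pass. Groups lay apart on the lower side for 13.9% of all tested genes.

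Pho85 works with other cyclins than Pho80. Of the 10 Pho85 cyclin genes 1 passed the test, where 12.1% of all tested genes did. PCL5, the cyclin that directs Pho85 to the amino acid regulator Gcn4, fell by 0.50 ± 0.06 (SE) on the log2 scale (limma, adjusted p = 0.00301), with 95% bounds of -0.65 and -0.36, and passed in all 6 fits that left out 1 array. PCL6, PCL7, PCL8 and PCL10, which serve glycogen metabolism, had log2 changes between -0.10 and 0.10. CLG1 had one of -0.06 and PCL9 one of 0.24. PCL1 and PCL2, the cyclins of the start of the cell cycle, had log2 changes of 0.70 and 0.30 with adjusted p of 0.0778 and 0.0940; PCL1 lay above background on only 2 of 6 arrays. None of 10 genes for Pho85 substrates passed limma's test over all genes, PHO4 included. Of the 10, CLN3 alone had an unadjusted p under 0.05, as did 1468 of all 5449 tested genes. GCN4, the substrate that Pcl5 presents, had a log2 change of -0.0073, RIM15 one of 0.03 and the stress factor CRZ1 one of -0.06. The glycogen synthase genes GSY1 and GSY2 had log2 changes of 0.02 and 0.32, and the cell cycle regulators SIC1, CLN3 and WHI5 had 0.03, 0.22 and -0.07. RVS167, an actin-linked gene of endocytosis, had a log2 change of 0.05.

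Of the 11 genes for inositol polyphosphate enzymes 1 rose and none fell, where 7.45% of all tested genes rose and 4.64% fell. PLC1, phospholipase C, which releases the inositol trisphosphate that the later kinases extend, rose by 0.21 ± 0.05 (SE) on the log2 scale (limma, adjusted p = 0.0403). Among the fits that left out an array it passed only without GmbHLHm1 replicate 3; in the other 5 the adjusted p reached 0.152. ARG82 and IPK1, the kinases between PLC1 and the pair KCS1 and VIP1, had log2 changes of 0.08 and -0.06. DDP1, a phosphatase that breaks down inositol pyrophosphates and polyphosphate, had a log2 change of 0.16 (limma, adjusted p = 0.0757). Its groups did not overlap, as was so on the higher side for 19.3% of all tested genes. SIW14, a further pyrophosphatase, had 0.02, the inositol monophosphatases INM1 and INM2 had 0.11 and 0.0012, the phosphoinositide phosphatase INP51 had -0.07 and the polyphosphatase PPN1 had -0.01.

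Pho2 also acts with Bas1 on genes of purine, histidine and one-carbon metabolism. Of 14 such genes 1 fell and none rose, where 4.64% of all tested genes fell and 7.45% rose. The median log2 change of the 14 was -0.03. At an unadjusted p under 0.05 limma gave 3 of the 14, and 1468 of all 5449 tested genes. The 3 were HIS4, SHM2 with a log2 change of -0.20 and GCV1 with one of 0.21. HIS4, an enzyme of histidine synthesis that Gcn4 also activates, fell by 0.41 ± 0.07 (SE) on the log2 scale (limma, adjusted p = 0.0120), and lost the call without empty vector replicate 1 or 3, with an adjusted p of up to 0.0578. The 8 tested purine synthesis genes of the list lay between -0.07 and 0.06 on the log2 scale, and none passed.

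The genes that lie next to the 7 on the chromosome were looked up in the RefSeq gene table of assembly R64, after the members' values had been seen. Of 12 tested neighbours 2 rose, ARO9 and IZH2, and none fell, where 7.45% of all tested genes rose and 4.64% fell. A count this small shows nothing particular to the neighbours. ARO9, an aromatic aminotransferase gene, lies beside SPL2 and is read away from it, so the pair shares the stretch between their starts. It measured 9.14, 9.45 and 9.29 in GmbHLHm1 replicates 1, 2 and 3, against 7.98, 8.21 and 8.41 with the empty vector. The groups lay wide apart, and ARO9 rose by 1.09 ± 0.12 (SE) on the log2 scale (limma, adjusted p = 0.00198, and at most 0.0128 without any 1 array). YCK1, on the other side of SPL2, had a log2 change of 0.02.

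IZH2, a membrane protein gene of zinc homeostasis, lies in the same arrangement beside PHO80. It rose by 0.41 ± 0.08 (SE; limma, adjusted p = 0.0172), and lost the call without empty vector replicate 1, 2 or 3, with an adjusted p of up to 0.0852, while PHO80 itself did not pass. YHB1, the flavohaemoglobin gene that diverges from PHO81, had a log2 change of -0.07, and NAS6 on its other side 0.08. The divergent neighbours of PHO2, PHO85 and VIP1, which are NSE4, TRM44 and UTP21, had log2 changes between 0.02 and 0.05. The upstream neighbour of KCS1 was not among the tested genes.

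**Figure D4:**
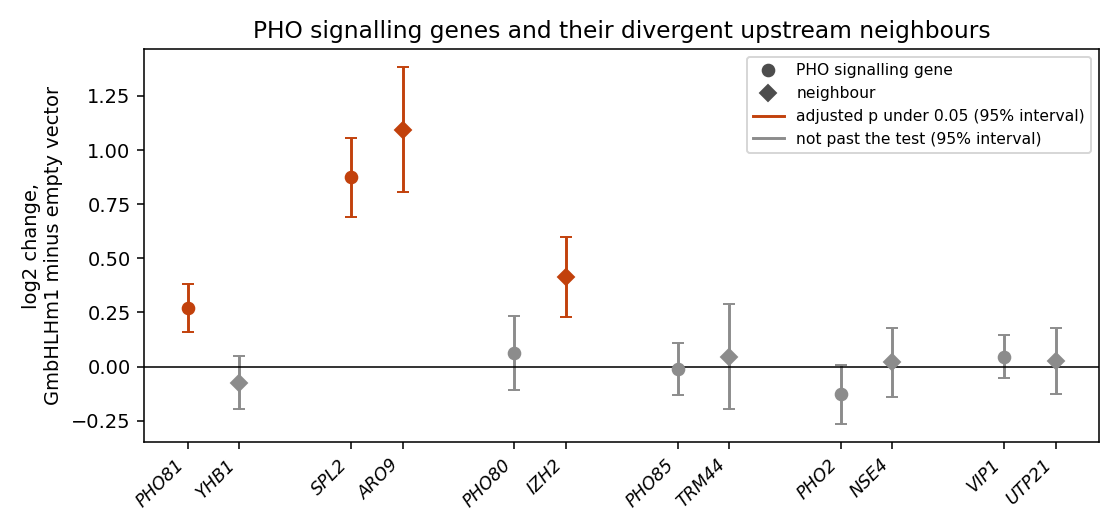
Log2 change with limma's 95% interval of 6 PHO signalling genes (circles) and of the neighbouring gene that is read away from each (diamonds), coloured where the adjusted p was under 0.05. SPL2 and ARO9 both lie above 0, PHO81 does so without YHB1, and IZH2 does so without PHO80.

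The genes whose profile over the 6 arrays was nearest to those of SPL2 and PHO81 were found by the root mean square difference of log2 values, each taken relative to the gene's empty vector mean. For SPL2 they were YOR342C at 0.0680 log2 units, YHR033W at 0.0827 and THI7, a thiamine transporter gene, at 0.0848, with log2 changes of 0.85, 0.93 and 0.78. For PHO81 they were ECM30 at 0.0287, GAD1, the glutamate decarboxylase gene, at 0.0293, and MRPL38, a mitochondrial ribosomal protein gene, at 0.0381, with log2 changes of 0.28, 0.28 and 0.23. None of these 6 is in the lists of the phosphate pathway used here.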

How the data were processed

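The authors deposited intensities on a linear scale for 10928 probe sets and 6 arrays, made with RMA per the submitters' processing notes; its software is not given in the sources used here. RMA matches the distributions of the arrays, which would hide a shift common to all transcripts. The linear scale was read from the values, 5.00 to 28314, and their log2 was taken here. Platform annotation and the RefSeq gene table of assembly R64 named 5498 probe sets. Of the 5449 genes, 47 had several, and the one with the highest mean stood for the gene. The background level of an array was the 95th percentile of 1746 probe sets whose gene identifiers lie outside that table.

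Groups came from the labels. Genes were fitted with limma 3.58.1 in R 4.3.3 (lmFit, eBayes, no filter, no block) on the deposited values; beforehand the fitting step was checked on simulated data, from which no value is given. Figures used matplotlib 3.10.9. Members and lists were chosen with earlier results of these data known. All 7 members, PHO4, PHO84, the strain genes and short lists are named in full; of longer lists, the top 3 and bottom 3 past the test; and for each member past the test, the 3 genes nearest in profile. Of the purine and one-carbon list, HIS4 alone qualified, and SHM2 and GCV1 are named for their unadjusted p. ADE5,7, PHO12 and VTC5 were not tested, and HOR2 was taken as GPP2. With 3 arrays per group, precision is limited by their number. Alternatives were other scalings, a filter on dim probe sets, other variance settings, array weights, a replicate block, other handling of probe sets, an added offset of 16 and leaving out each array.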

Additional observations from a re-analysis of the deposited data

How the results depend on the processing

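Under 16 alternatives each, SPL2, PHO2 and VIP1 kept their direction and their side of the threshold, SPL2 with log2 changes of 0.82 to 0.94. The log2 change of PHO81 was 0.27 with all probe sets in one fit (adjusted p = 0.0505, so 1 gene of the 7 was higher there) and 0.24 to 0.29 without any 1 array (adjusted p 0.0184 to 0.0654, so 1 to 2 genes were higher). The directions of 3 genes that did not pass turned. Without any 1 array PHO80 ranged from -0.014 to 0.11, turning without GmbHLHm1 replicate 2, KCS1 from -0.013 to 0.16, turning without GmbHLHm1 replicate 1, and PHO85 from -0.034 to 0.024, turning without GmbHLHm1 replicate 1 (0.024) or empty vector replicate 2 (0.0054); with array weights PHO85 was 0.0013. The cause was not tested. The 659 genes past the test became 284 without moderation, 427 with the replicate block and 251 to 723 without any 1 array, the low counts without empty vector replicate 1, 2 or 3 being 251, 341 and 293. The inositol enzyme count of 1 higher became 0 with quantile normalization, median centring, no moderation, array weights, the replicate block or all probe sets in one fit, and 0 to 1 without any 1 array. The Pho85 cyclins and substrates higher were 0 to 1 without any 1 array. The Bas1 and Pho2 targets higher became 1 with the trended and robust prior, array weights or log2(value + 16), and 0 to 1 without any 1 array; those lower became 2 with that prior, 0 without moderation, and 0 to 1 without any 1 array. The labels do not say what the shared replicate numbers stand for. Deviations of same-numbered arrays from their group means correlated at -0.07, -0.08 and 0.14 for numbers 1, 2 and 3. Those of differently numbered arrays correlated at -0.14 to 0.19. With 3 arrays per group, these values cannot show whether the numbers pair the samples. The replicate block left SPL2 and PHO81 past the test (adjusted p = 0.00147 and 0.0423).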
